A study of Mus musculus with 6 samples.

Results

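The genes described here are 8 genes of MHC class II antigen presentation, H2-Aa, H2-Ab1, H2-Eb1, Cd74, Ciita, H2-DMa, H2-DMb1 and Ctss, out of 55385 mouse gene rows in the deposited table. They were chosen from earlier values of the same libraries, in which Cd74 and H2-Aa did not follow the other white blood cell markers between the groups. Their difference between the groups is therefore described here without a test. The libraries are bulk RNA-seq of PDVC57, a mouse squamous cell carcinoma line derived from skin keratinocytes, and the series' design text says that tumour cells low or high in Sox2 were taken from grafted tumours. There were 3 libraries labelled Sox2 KO (knockout) and 3 labelled Sox2 OE (overexpression). Both groups carry an altered Sox2, and unmodified PDVC57 cells were not analysed here. The sources used here do not say whether the libraries came from separate grafts, clones or mice, so the p-values measure only the spread between these libraries, which may be technical. The series was set up to find what Sox2 switches on in tumour stem cells that acts on neutrophils.

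Sox2 itself stood at 1.08 ± 0.377 CPM (counts scaled to a library of 1000000; SD, n = 3) in the knockout group and at 103 ± 24.9 CPM (SD, n = 3) in the overexpression group. Library totals ran from 31247976 to 38543221 counts. The groups also differed in the RNA of other cell types: 8 fibroblast markers summed to 52954 to 80724 CPM in the knockout libraries and to 244 to 385 CPM in the overexpression libraries, and 8 pan white blood cell markers summed to 56.6 to 445 CPM and 10.5 to 13.4 CPM. The 23 epithelial genes summed to 7289 to 11253 CPM and to 19188 to 24161 CPM, so epithelial genes were expressed in every library. Knockout replicate 3 held the highest white blood cell sum and the lowest epithelial sum. In bulk RNA, fewer cells of a type and less RNA per cell cannot be told apart, and the part of these other cells in any value of the class II genes was not tested.

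MHC class II molecules display peptides from the endosomes to helper T cells. An alpha and a beta chain form the peptide-binding groove, the invariant chain CD74 fills that groove until cathepsins, among them cathepsin S, degrade it, and H2-DM then exchanges the remaining fragment for peptides. Dendritic cells and B cells make class II all the time, whereas keratinocytes and many carcinoma cells make it under interferon gamma. Interferon gamma acts there through the coactivator CIITA, which binds no DNA itself but docks on the RFX, CREB and NF-Y proteins held at the X and Y boxes of class II promoters.

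Promoter windows from RefSeq (GRCm38.p6) were found for 5 of the 8 genes, and stretches of 3 class II chain promoters that carry the X and Y boxes are shown with that of Ctss, which carries neither. Each runs 5′ to 3′ on the gene's strand, with the matched letters in capitals.
H2-Aa: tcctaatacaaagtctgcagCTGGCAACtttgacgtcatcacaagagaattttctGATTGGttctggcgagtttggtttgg
H2-Eb1: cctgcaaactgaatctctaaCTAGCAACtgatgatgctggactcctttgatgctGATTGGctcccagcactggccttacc
H2-Ob: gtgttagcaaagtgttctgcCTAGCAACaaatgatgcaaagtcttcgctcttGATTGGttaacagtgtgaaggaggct
Ctss: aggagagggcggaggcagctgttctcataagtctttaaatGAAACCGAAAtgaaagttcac
The H2-Aa stretch is chr17:34287847-34287927 on the minus strand, from -104 to -24 of the transcription start. The H2-Eb1 stretch is chr17:34305753-34305832 on the plus strand, from -114 to -35. H2-Ob, a chain of the H2-O inhibitor of H2-DM, has its stretch at chr17:34238795-34238872 on the plus strand, from -110 to -33, and the Ctss stretch is chr3:95526725-95526785 on the plus strand, from -61 to -1. In the chain promoters the first run of capitals matched an X-box core written as CNNGNAAC and the second a Y box, GATTGG, with 27, 26 and 24 bases between them. In Ctss the capitals matched GAAA, then NN, then GAAA, the core of an interferon-stimulated response element. The motifs were searched on both strands over the 250 bases before each start and were chosen after these promoters had been seen.

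An X core followed by a Y box 15 to 35 bases on was held by 0.225% of 32851 RefSeq promoter windows of that length. Among the 9 class II genes with a window, 6 held the pair: the members H2-Aa, H2-Eb1 and H2-DMb1, and the chains H2-Eb2, H2-Oa and H2-Ob. The 2 windows of H2-DMa and the window of H2-DMb2 did not hold the pair. An interferon-stimulated core was held by 2.98% of the windows, an X core by 33.3% and a Y box by 14.6%, each counted with or without the others. These letter matches describe the windows and are not evidence of binding.

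The chains of the classical class II molecules were expressed in every library of both groups, between 114 and 689 CPM. H2-Aa (chr17:34282744-34287823, minus strand, GENCODE M21 on GRCm38), the alpha chain of H2-A, stood at 357, 412 and 114 CPM in knockout replicates 1 to 3 and at 606, 498 and 303 CPM in overexpression replicates 1 to 3. Knockout replicate 3 was the lowest library by far, and the groups overlapped because overexpression replicate 3 lay below the other two knockout libraries. The means were 294 ± 158 and 469 ± 154 CPM (SD, n = 3 each), and the fitted log2 ratio of the groups was 0.67 (SE 0.44). All such ratios are overexpression over knockout on TMM-scaled counts, with the standard error (SE) of the fit.

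H2-Ab1 (chr17:34257689-34269419, plus strand) encodes the beta chain that pairs with H2-Aa. It stood at 497, 573 and 174 CPM in the knockout libraries and at 689, 679 and 424 CPM in the overexpression libraries. The order of the libraries was that of H2-Aa at its low end, with knockout replicate 3 lowest and overexpression replicate 3 inside the knockout range. Its means of 414 ± 212 and 597 ± 150 CPM (SD, n = 3 each) gave a log2 ratio of 0.53 (SE 0.40).

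H2-Eb1 (chr17:34305867-34316674, plus strand), the beta chain of H2-E, stood at 427, 489 and 148 CPM and at 648, 620 and 386 CPM. Again the groups overlapped through overexpression replicate 3, and knockout replicate 3 was lowest. A log2 ratio of 0.64 (SE 0.40) came from means of 355 ± 182 and 552 ± 144 CPM (SD, n = 3 each).

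Cd74 (chr18:60803848-60812652, plus strand), the invariant chain that escorts the pair of chains to the endosome, had the most counts of the 8 genes in every library. Its levels were 708, 803 and 305 CPM in the knockout libraries and 1204, 1118 and 695 CPM in the overexpression libraries. Overexpression replicate 3 lay just below knockout replicates 1 and 2 and was the one overexpression library inside the knockout range. The means of 605 ± 264 and 1006 ± 272 CPM (SD, n = 3 each) differed by 0.73 on the log2 scale (SE 0.36).

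**Figure D1:**
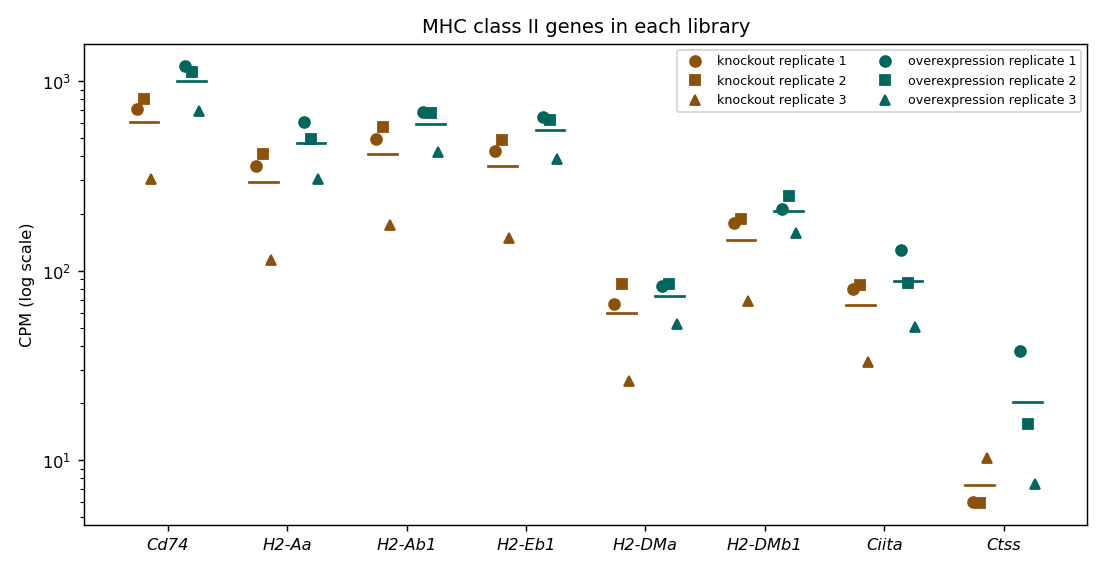
CPM of the 8 class II genes on a log axis, 1 point for each library with the group mean as a bar, knockout beside overexpression. For 7 of the genes the lowest point is knockout replicate 3, and the points of the groups overlap for all 8.

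Both chains of the peptide exchanger H2-DM were measured. H2-DMa (chr17:34119541-34139101, plus strand), its alpha chain, stood at 66.6, 85.3 and 26.1 CPM in the knockout libraries and at 83.3, 85.0 and 52.0 CPM in the overexpression libraries. Here a knockout library, replicate 2, was the highest of all, and the log2 ratio of 0.31 (SE 0.39) came from means of 59.4 ± 30.3 and 73.4 ± 18.6 CPM (SD, n = 3 each). H2-DMb1 (chr17:34153072-34160230, plus strand), a beta chain, stood at 178, 187 and 69.2 CPM and at 212, 246 and 158 CPM. Its groups overlapped only through overexpression replicate 3, and its log2 ratio of 0.50 (SE 0.35) came from means of 145 ± 65.6 and 205 ± 44.8 CPM (SD, n = 3 each). The exons of H2-DMa overlap those of Brd2 on the other strand, 9.23% of its 31-base words also occur in Brd2 transcripts, and 31.4% of those of H2-DMb1 occur in H2-DMb2, so the split of reads between these genes is uncertain.

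Ciita (chr16:10480059-10528418, plus strand), the coactivator on which class II transcription depends, was detected in every library. Its levels were 80.1, 84.3 and 33.0 CPM in the knockout libraries and 128, 85.8 and 50.4 CPM in the overexpression libraries. Overexpression replicate 2 lay beside knockout replicates 1 and 2, overexpression replicate 3 lay below them and replicate 1 above, so the groups overlapped. The means were 65.8 ± 28.5 and 88.07 ± 38.9 CPM (SD, n = 3 each), with a log2 ratio of 0.42 (SE 0.40). Dexi on the other strand overlaps its exons, and 2.77% of its 31-base words also occur in other genes, most of them in Dexi.

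Ctss (chr3:95526786-95556403, plus strand), the protease cathepsin S that trims the invariant chain, was the exception in pattern. It stood at 5.98, 5.92 and 10.3 CPM in the knockout libraries and at 37.6, 15.5 and 7.46 CPM in the overexpression libraries. Knockout replicate 3 was the highest knockout library instead of the lowest, and it lay above overexpression replicate 3. Its log2 ratio of 1.45 (SE 0.53) came from means of 7.39 ± 2.50 and 20.2 ± 15.6 CPM (SD, n = 3 each). Overexpression replicate 1 set much of that mean: without it that mean dropped to 11.5 CPM and the ratio to 0.65 on the log2 scale.

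All 8 genes passed the filter on low counts, all 8 fitted log2 fold changes were above 0, and the range was 0.31 to 1.45 with a median of 0.58, beside a median of -0.02 and 49.2% above 0 over the 18504 genes tested. With the quasi-likelihood test of edgeR and an adjusted p under 0.05, 0 of the 8 were called, where 31.6% of all tested genes were. At an unadjusted p under 0.05 the count was 1 of 8 (42.2% of all genes), and DESeq2 called 1 of 8 (34.6%). No member had groups that did not overlap, where 24.4% of all genes had every overexpression library above every knockout library and 26.5% had every one below. The contrast chose the genes, so nothing is read from these counts. Without knockout replicate 3 the median was 0.22, 7 of 8 fold changes stayed above 0 and H2-DMa was at -0.04. Scaling to epithelial genes, which moves the median of all genes to -1.29, gave a member median of -0.56 with 1 of 8 above 0. The sign of the members thus depends on the scaling. Of the 23 epithelial genes, 17 were themselves called higher in the main fit. Whether they follow the amount of epithelial RNA was not tested.

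**Figure D2:**
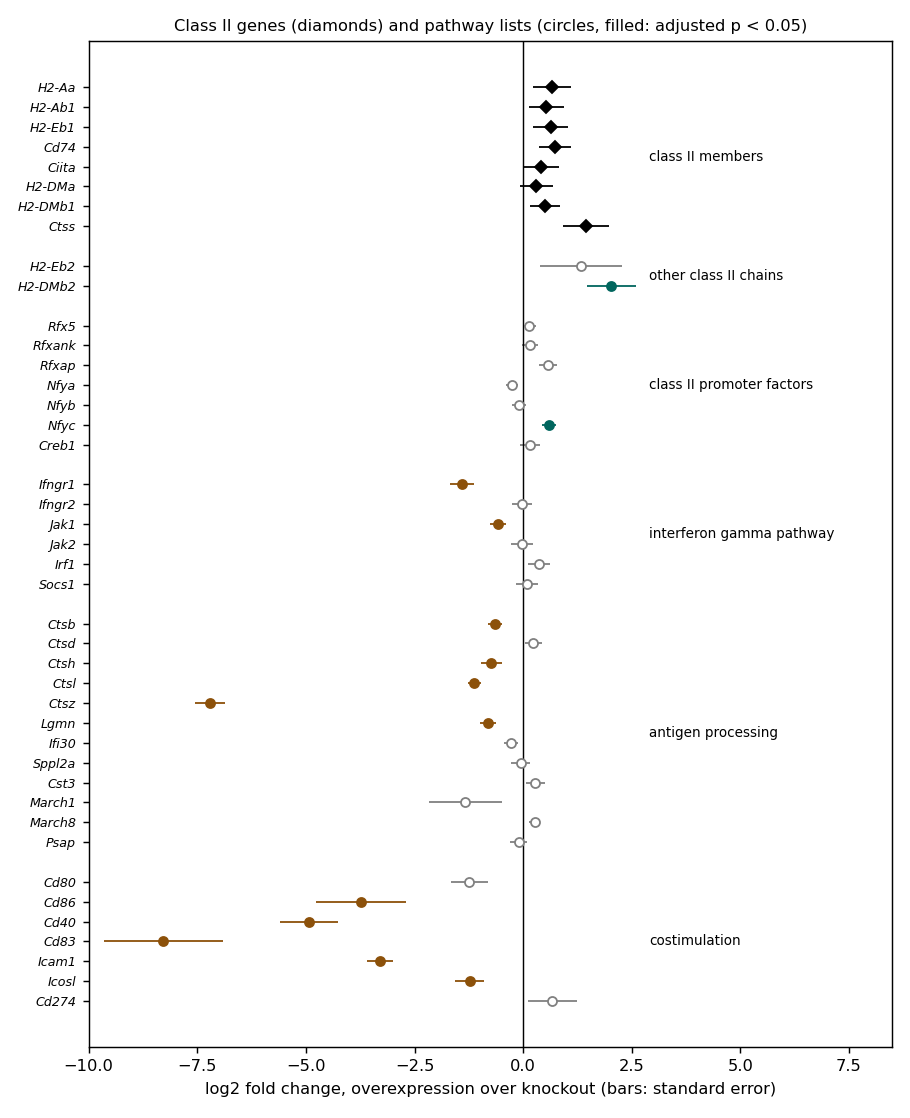
Fitted log2 fold changes (overexpression over knockout) with their standard errors for the 8 class II genes (diamonds) and for genes of the pathway lists (circles, filled where the adjusted p is under 0.05). The members lie between 0.31 and 1.45 and Ctsz lies at -7.22, while the point of Cd83, with at most 1 count in any overexpression library, depends on the fit and is no bound.

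Within the knockout group, 7 of the 8 genes had their lowest CPM of all 6 libraries in replicate 3, at 29.8% to 40.4% of the mean of the other two knockout libraries, and Ctss stood at 173% of it. Of all tested genes, 22.1% had their lowest value in that library and 23.0% their highest. In the overexpression group, 6 of the 8 genes had their highest value of all libraries in replicate 1, where 13.7% of all genes did. Knockout means without replicate 3 were 384 CPM for H2-Aa, 535 CPM for H2-Ab1 and 756 CPM for Cd74. The members together made up 0.0896% to 0.252% of the counts of a knockout library and 0.213% to 0.378% of an overexpression library.

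**Figure D3:**
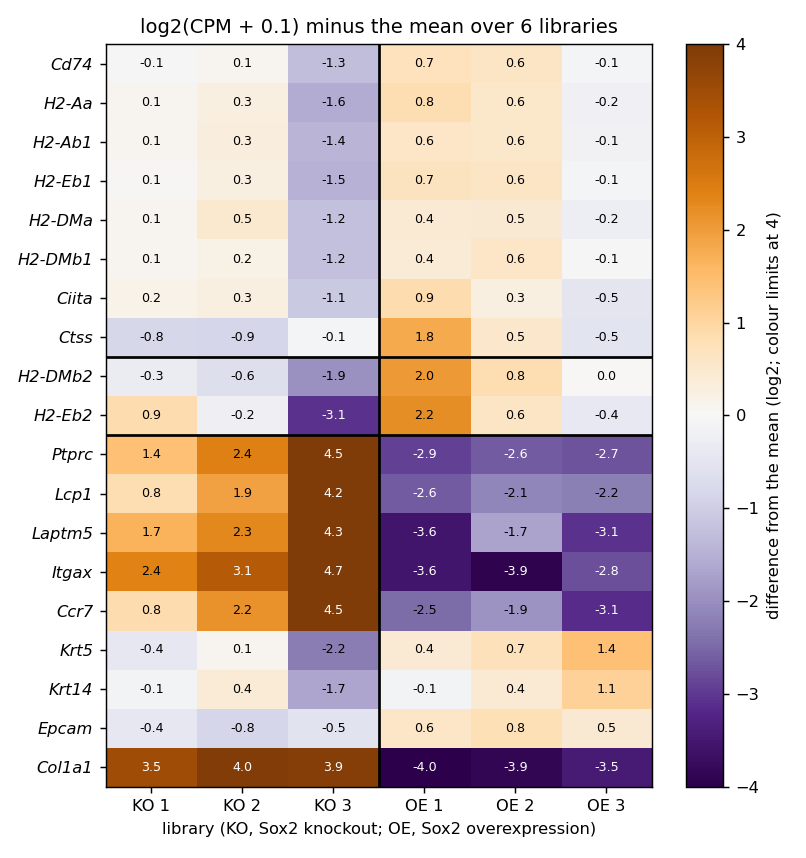
Heat map of log2(CPM + 0.1) minus the gene's mean over the 6 libraries (columns) for the 8 class II genes, 2 other class II chains and white blood cell, epithelial and fibroblast genes (rows), with the colour range ending at -4 and 4. In knockout replicate 3 the members other than Ctss are at their lowest and Ptprc, Lcp1, Laptm5, Itgax and Ccr7 at their highest. Not every white blood cell gene does so: Flt3, Csf1r and Cd68, which are not shown, had log2 fold changes of 1.99, 0.86 and 0.49. Each of them was highest in an overexpression library.

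Per kilobase of the principal transcript, the level order was Cd74, H2-Ab1, H2-Aa, H2-Eb1, H2-DMb1 and H2-DMa in all 6 libraries, with Ciita and Ctss below them. In the overexpression group, the levels per kilobase were 713 ± 193 for Cd74, 493 ± 124 for H2-Ab1, 416 ± 136 for H2-Aa and 330 ± 86.2 for H2-Eb1 (CPM per kb, SD, n = 3), and the ranges of neighbours in this order overlapped. The beta and alpha chains of H2-DM followed at 146 ± 31.9 and 44.3 ± 11.2 CPM per kb, each apart from its upper neighbour. Ctss at 14.9 ± 11.5 and Ciita at 14.7 ± 6.47 CPM per kb did not differ beyond their spread, and Ctss lay above Ciita only in knockout replicate 3 and overexpression replicate 1. In the knockout group, where replicate 3 widens every range, the step from H2-DMa down to Ciita was the one between neighbours that did not overlap. The place of H2-Aa depends on its length: with the union of its annotated exons, 3798 bases in place of 1128, it stood below H2-Eb1, at 77.5 against 182 CPM per kb in the knockout group and at 123 against 284 CPM per kb in the overexpression group.

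Ratios between members within a library do not depend on the scaling of the libraries. H2-Ab1 stood at 1.14 to 1.52 times the CPM of H2-Aa over the 6 libraries and H2-Eb1 at 1.07 to 1.29 times. Cd74 stood at 1.95 to 2.67 times H2-Aa, H2-DMb1 at 0.350 to 0.605 times, H2-DMa at 0.137 to 0.229 times and Ciita at 0.166 to 0.289 times. For these 6 genes the highest ratio was at most 1.74 times the lowest, whereas H2-Aa itself varied 5.30-fold between libraries. The ratio of Ctss to H2-Aa ran from 0.0144 to 0.0899, a 6.25-fold range, with knockout replicate 3 at its top.

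**Figure D4:**
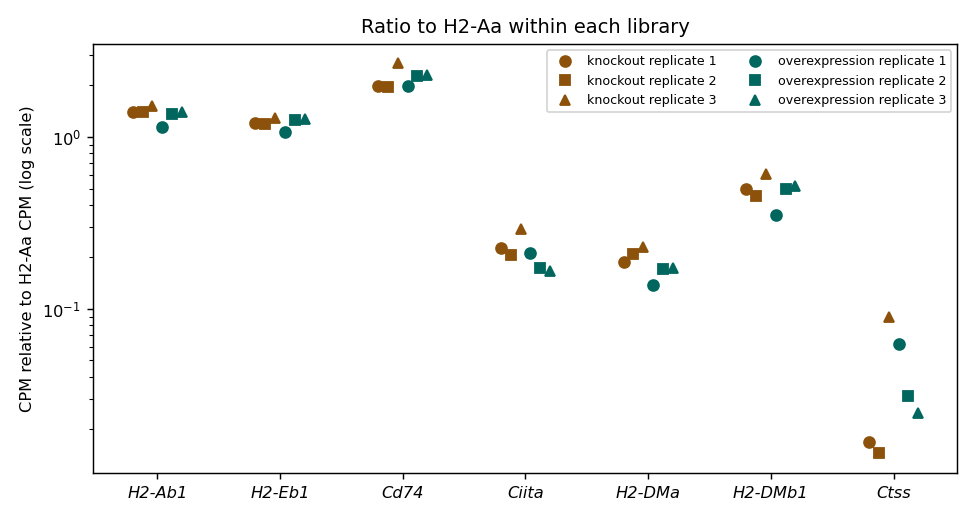
Ratio of each class II gene's CPM to that of H2-Aa in the same library, on a log axis, 1 point for each library. The points of 6 genes lie close together and those of Ctss spread 6.25-fold.

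Ptprc, the pan white blood cell phosphatase CD45, was highest in knockout replicate 3, where H2-Aa, H2-Ab1 and H2-Eb1 were lowest. It stood at 10.6, 21.6 and 88.1 CPM in the knockout libraries and at 0.427, 0.541 and 0.506 CPM in the overexpression libraries. Every overexpression library was lower, and it fell by 6.34 on the log2 scale (adjusted p = 0.000611, edgeR), and fell by 5.02 without knockout replicate 3, where its knockout mean goes from 40.1 to 16.1 CPM. The ratio of H2-Aa to Ptprc was 33.5, 19.0 and 1.30 in the knockout libraries and 1419, 919 and 599 in the overexpression libraries. Knockout replicate 2 held more of both genes than knockout replicate 1, but the library richest in Ptprc was the poorest in H2-Aa. The overexpression libraries held 303 to 606 CPM of H2-Aa beside less than 1 CPM of Ptprc. This is the pattern by which the genes were chosen.

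**Figure D5:**
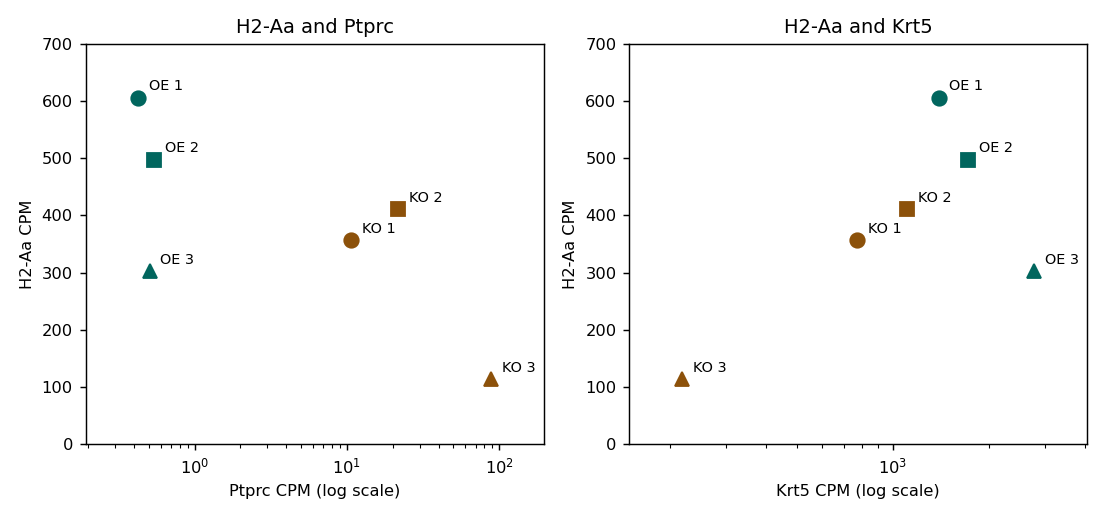
CPM of H2-Aa (linear axis) against CPM of Ptprc and of Krt5 (log axes), 1 point for each of the 6 libraries. In knockout replicate 3 H2-Aa is at 114 CPM, Ptprc at 88.1 CPM and Krt5 at 218 CPM, the highest Ptprc and the lowest H2-Aa and Krt5 of the 6.

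Markers of white blood cells, among which are the cells that make class II constitutively, were read next. In knockout replicate 3 the pan white blood cell markers Lcp1 and Ptprc stood at 110 and 88.1 CPM, near the 114 CPM of H2-Aa. In the overexpression libraries Lcp1 stood at 0.885 to 1.32 CPM and H2-Aa at 303 to 606 CPM. Of 8 pan white blood cell markers, 0 were higher and 7 lower with overexpression (edgeR, adjusted p under 0.05, where 13.6% of all genes were higher and 18.0% lower). All 8 were highest in knockout replicate 3, without which 7 were still lower. The class II genes were chosen for not following such markers, so nothing is read from that contrast. The 8 dendritic cell markers summed to 15.5 to 78.2 CPM in the knockout libraries and to 11.4 to 18.0 CPM in the overexpression libraries. Of these, 4 were tested, 2 were lower and 1 was higher: Flt3, the receptor for a dendritic cell growth factor, rose from 2.76 ± 2.19 to 11.1 ± 2.72 CPM (SD, n = 3 each; log2 fold change 1.99, adjusted p = 0.0165), a call lost without knockout replicate 2 or overexpression replicate 2 and under scaling to epithelial genes, with a log2 fold change of 2.89 without knockout replicate 3. Itgax, the integrin CD11c, fell from 20.5 to 0.0523 CPM, from a knockout mean of 10.6 CPM without replicate 3. Cd207, which marks Langerhans cells of the epidermis, had 0 counts in 5 libraries and 1 count in overexpression replicate 2.

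The 10 macrophage markers summed to 16.2 to 29.5 CPM in the knockout libraries and to 13.8 to 28.3 CPM in the overexpression libraries. Of 7 tested, 0 were higher and 3 lower (13.6% and 18.0% of all genes). Without knockout replicate 2 the count was 1 lower, and without overexpression replicate 3 it was 1 higher and 2 lower. The most abundant macrophage markers, Csf1r and Cd68, had log2 fold changes of 0.86 and 0.49 that did not pass the test. These 2 were the only ones of the 7 above 0. The median of the 7 was -1.77 and the lowest was -3.22. The 6 B cell markers summed to at most 1.75 CPM in any library. The 8 T and NK cell markers summed to 6.74 to 64.5 CPM and to 0.981 to 1.86 CPM, 7 neutrophil markers to 4.66 to 8.74 CPM and to 2.68 to 9.95 CPM, and 6 endothelial markers to 26.9 to 114 CPM and to 12.3 to 19.5 CPM. The 8 class II genes summed to 880 to 2638 CPM in the knockout libraries and to 2076 to 3608 CPM in the overexpression libraries. Sums over different genes do not measure how much class II RNA a cell type holds. The part of these cell types in the class II values was not tested.

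Many but not all epithelial genes were, like the class II genes, lowest in knockout replicate 3. Of 23 epithelial genes, 17 were higher and 0 lower with overexpression (13.6% and 18.0% of all genes; 12 and 0 without knockout replicate 3), their median log2 fold change was 1.14, and 14 of the 23 had their lowest CPM in knockout replicate 3. Krt8 and Cldn4, the epithelial genes with most counts, were lowest in knockout replicates 3 and 2. Krt5, the keratin of basal keratinocytes, stood at 772, 1105 and 218 CPM in the knockout libraries. In the overexpression libraries it stood at 1390, 1720 and 2778 CPM. It was chosen after its values were seen and is not among the 17 (log2 fold change 1.49, edgeR adjusted p = 0.0584). The ratio of H2-Aa to Krt5 was 0.462, 0.373 and 0.525 in the knockout libraries and 0.436, 0.289 and 0.109 in the overexpression libraries. Knockout replicate 3 had the highest of these ratios although it was lowest in both genes, and overexpression replicate 3, richest in Krt5, had the lowest.

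Of the other class II chains, 5 genes were found, and 2 of them passed the filter. H2-DMb2, a second beta chain for H2-DM beside H2-DMb1, stood at 5.95, 4.73 and 1.84 CPM in the knockout libraries and at 30.5, 13.2 and 7.54 CPM in the overexpression libraries. All overexpression libraries lay above all knockout libraries, and the gene rose by 2.03 on the log2 scale (SE 0.57; edgeR, adjusted p = 0.0251). The call was lost without knockout replicate 2 (adjusted p = 0.0653), knockout replicate 3 (0.0514), overexpression replicate 1 (0.0714) or overexpression replicate 2 (0.0554) and under scaling to epithelial genes (0.0873); without overexpression replicate 1 the overexpression mean goes from 17.1 to 10.3 CPM and the log2 fold change to 1.33. Counts of H2-DMb2 were 2.53% to 3.34% of those of H2-DMb1 in the knockout libraries and 4.78% to 14.4% in the overexpression libraries, with the shared words above as a limit.

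H2-Eb2, a chain close to H2-Eb1 with the promoter pair named above, stood at 3.52, 1.65 and 0.137 CPM and at 9.03, 2.98 and 1.42 CPM. Its groups overlapped and the difference of 1.34 on the log2 scale did not pass the test (adjusted p = 0.314, edgeR). Leaving out knockout replicate 1 gave 2.35, and leaving out overexpression replicate 1 gave 0.33, where the overexpression mean goes from 4.48 to 2.20 CPM, and neither fit passed. H2-Oa and H2-Ob, the chains of the H2-DM inhibitor made mainly in B cells and some dendritic cells, were near 0 outside knockout replicate 3, with counts of 1, 0 and 27 for H2-Oa and of 1, 3 and 46 for H2-Ob in the knockout libraries. Both had at most 5 counts in any overexpression library. H2-Ea-ps, the alpha chain locus of H2-E, which is inactive in mice of the b haplotype such as C57BL strains, had at most 5 counts in any library. In knockout replicate 3, then, H2-Oa and H2-Ob were at their highest where H2-Aa, H2-Ab1 and H2-Eb1 were at their lowest.

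Over the genes that act with class II (other chains, promoter factors, the interferon gamma pathway, antigen processing and costimulation), 35 were tested, 2 rose and 12 fell, with a median log2 fold change of -0.093. Among all genes 13.6% rose and 18.0% fell. Without knockout replicate 3 the counts were 0 and 8, and under scaling to epithelial genes 0 and 32. All 7 factors that hold class II promoters were tested and 1 rose: Nfyc, a subunit of NF-Y, went from 32.3 ± 1.88 to 49.0 ± 7.63 CPM (SD, n = 3 each; log2 fold change 0.60, edgeR adjusted p = 0.0206). That call was lost without each knockout library in turn and its sign was -0.68 under scaling to epithelial genes. Rfx5, Rfxap and Rfxank, the RFX subunits whose loss abolishes class II expression in human patients, had log2 fold changes of 0.14, 0.57 and 0.16 that did not pass.

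In the interferon gamma pathway, 8 genes were found, 7 were tested, 0 rose and 2 fell, or 1 without knockout replicate 3. Among all tested genes 13.6% rose and 18.0% fell, and this list is too small for its count to be read as a result about the pathway. Ifngr1, the ligand-binding chain of the receptor, stood at 46.2, 62.9 and 103 CPM in the knockout libraries and at 27.5, 24.8 and 27.9 CPM in the overexpression libraries. The groups did not overlap, and it fell by 1.40 on the log2 scale (SE 0.27; edgeR, adjusted p = 0.00452), a call kept whichever library was left out. Jak1, a kinase on that receptor, fell by 0.58 (adjusted p = 0.0453), and its call was lost in 5 of the 6 fits that left out 1 library, with an adjusted p of up to 0.176. Ifng, the cytokine itself, had 13, 9 and 59 counts in the knockout libraries and 0, 1 and 0 in the overexpression libraries. It was at least 7.54-fold lower with overexpression, against a floor of 3 counts per library, and at least 3.34-fold lower without knockout replicate 3. Markers of T and NK cells, which make interferon gamma, fell in 6 of 7 tested cases and summed to 6.74, 14.0 and 64.5 CPM in the knockout libraries, highest in replicate 3 like Ifng and Ifngr1, and their part in these values, like that of the fibroblast markers, was not tested. Irf1, a factor that acts on the Ciita promoter, did not pass, with a log2 fold change of 0.37.

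Among 12 genes of antigen processing, all tested, 0 rose and 5 fell (13.6% and 18.0% of all genes). The falls numbered 2 without knockout replicate 2 or overexpression replicate 3, and 3 without overexpression replicate 1. Ctsz, the lysosomal carboxypeptidase cathepsin Z, fell from 80.9 ± 20.1 to 0.541 ± 0.211 CPM (SD, n = 3 each), and fell by 7.22 on the log2 scale (edgeR, adjusted p = 2.09e-06). Ctsl, cathepsin L, which trims the invariant chain in thymic epithelium where Ctss does so in other presenting cells, fell from 805 ± 64.5 to 370 ± 29.6 CPM, and so fell by 1.12 (adjusted p = 0.000852). Lgmn, an asparagine-specific endopeptidase of the endosome, fell by 0.80 (adjusted p = 0.0113), a call lost without knockout replicate 2 or overexpression replicate 3. These proteases, and Ctsb and Ctsh, which fell by 0.65 and 0.73 with calls lost in 3 and 5 of the 6 fits that left out 1 library, moved against the sign of the fitted change of Ctss. The test of that difference between genes was not run. All 8 fibroblast markers fell as well, with a median log2 fold change of -7.98, as did 7 of 8 pan white blood cell markers, and their part in the falls of these proteases was not tested.

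Costimulatory genes fell in 5 of 7 tested cases, or 3 without knockout replicate 3, and 0 rose. Among all tested genes 18.0% fell and 13.6% rose. Icam1, an adhesion ligand that steadies the contact with a T cell, fell from 99.1 ± 33.4 to 10.1 ± 2.69 CPM (SD, n = 3 each), and so fell by 3.29 on the log2 scale (edgeR, adjusted p = 6.88e-05). Cd40, the receptor through which helper T cells license presenting cells, fell from 4.20 to 0.130 CPM, and so fell by 4.93 (adjusted p = 0.000671), or fell by 5.62 without overexpression replicate 3. Cd83, which protects class II from turnover at the surface, was at least 41.7-fold lower against a floor of 3 counts per library, and at least 13.8-fold lower without knockout replicate 3, where its knockout mean goes from 4.23 to 1.40 CPM. White blood cell markers, highest in the knockout libraries, moved with these genes, as given above, and their part was not tested. Cd274, the checkpoint ligand PD-L1, did not pass: overexpression replicate 1 stood at 255 CPM and the other libraries at 46.8 to 84.4 CPM.

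Genes were ranked by how near their profile over the 6 libraries was to the mean profile of H2-Aa, H2-Ab1, H2-Eb1 and Cd74. The search covered 11166 genes with an average log2 CPM of at least 2, leaving out predicted genes (Gm and Rik symbols) and rows without a symbol. The measure was the root mean square distance of centred log2 CPM. Batf2, an interferon-inducible AP-1 family factor, was nearest outside the class II genes at 0.244, followed by Pigf, an enzyme of glycolipid anchor synthesis, at 0.252. Next came Tap1, a subunit of the peptide transporter for MHC class I, at 0.292, Tmem53, a nuclear envelope protein, at 0.293, and Psmb9, an immunoproteasome subunit, at 0.296. H2-DMb1, H2-DMa and Ciita, which did not enter the reference profile, lay at 0.159, 0.179 and 0.253, and Ctss at 0.935. Batf2 stood at 18.6, 23.5 and 7.65 CPM in the knockout libraries and at 43.9, 23.8 and 15.9 CPM in the overexpression libraries, again lowest in knockout replicate 3. The likeness rests on 6 libraries, of which knockout replicate 3 is the farthest from the rest.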

How the data were processed

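The authors deposited unnormalized counts of each gene, as whole numbers, with 1 column for each of 6 libraries. Kallisto 0.44.0 and the build mm10 are named per the submitters' processing notes, with no role given. How counts were made, and with which annotation and strand setting, is not given in the sources used here. Rows that name no mouse gene (96, at most 2.23e-05% of a library) were left out. Symbols and positions are those of GENCODE M21.

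The 18504 genes kept by filterByExpr (minimum count 10) were fitted in 1 edgeR 4.0.16 model (R 4.3.3, TMM, quasi-likelihood test, group as the only term) with Benjamini-Hochberg adjustment over all of them, at a threshold of 0.05. The script was tested on simulated data. A standard error is the log2 fold change over the root of its F statistic. CPM use TMM-scaled library sizes, in which 3 counts are worth 0.0759 to 0.101 CPM. That floor covers counting error only. The rule for named genes took the members, Sox2, Ptprc, up to 3 called genes in each direction of each pathway list, all other class II chains, the 2 marker genes with most counts in each marker list, and the 5 nearest profiles. Genes named outside it (Krt5, Cd207, Rfx5, Rfxap, Rfxank, Irf1, Cd274, Ctsb, Ctsh, Ifng, Epcam and, in a picture, Krt14, Laptm5 and Ccr7) were chosen after their values were seen. The members and all lists were chosen with earlier results of these data known. Alternatives were DESeq2 1.42.0, other scalings, no filter, robust dispersion, a replicate block and leaving out each library. One gene of the pathway lists is counted but not reported here.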

Additional observations from a re-analysis of the deposited data

Results flagged for a closer look

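One signal lay outside the gene rows. The mCherry reporter sequence, 1 of the 96 rows that name no mouse gene, had 8 counts in knockout replicate 3, the library with the lowest H2-Aa, against at most 1 count in any other library. No control library was available for this row, and the value is given without a test.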

How the results depend on the processing

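Members are described, not tested, and every member's fold change stayed within 1 replicate SD under every alternative except scaling to epithelial genes. The contrast chose the members, so nothing is read from calls among the 8. The main fit called 0 of them (31.6% of all tested genes) and DESeq2 called 1 (34.6%). The fit with no filter called 2 of them, where 6648 genes were called in all, and the replicate block called 3 (5593 in all). Under scaling to epithelial genes 1 was called, H2-DMa, and it was lower (-0.85), where 14366 genes were called in all. With 1 library left out the count was 0 to 1. The member median of 0.58 ran from 0.22 to 0.89 with 1 library left out and was -0.56 under scaling to epithelial genes. That scaling called 14366 genes in place of 5848, 2.16% of them higher in place of 43.1%, and in the pathway lists 0 higher and 32 lower in place of 2 and 12. Among the called genes chosen for naming it turned the sign of Nfyc (-0.68), Krt8 (-0.36), Cldn4 (-0.14), Tmem53 (-0.26) and Psmb9 (-0.40). Genes that were not called turned too, among them Csf1r (-0.43), Cd68 (-0.84), Batf2 (-0.36), Pigf (-0.50), Tap1 (-0.63), Irf1 (-0.83), Rfxap (-0.77), Rfx5 (-1.12), Rfxank (-1.12) and Cd274 (-0.45). The cause was not tested. Leaving out 1 library gave 4230 to 5821 called genes, 0 to 2 pathway genes higher and 8 to 12 lower. Over all genes the replicate numbers showed no pairing: the deviations of libraries with the same number correlated at 0.051, 0.022 and -0.040. That correlation cannot decide on a pairing for the members. Knockout replicate 3 was the lowest knockout library for 7 of the 8, and overexpression replicate 3 was the lowest overexpression library for each of them. With the replicate block 5593 genes were called, H2-Eb2 among them (log2 fold change 1.65, edgeR adjusted p = 0.0275). Depth limits H2-Oa, H2-Ob, H2-Ea-ps, Ifng and Cd207, which lie near the floor of 3 counts in most libraries.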

Other observations

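Cd74 and its coactivator Ciita kept a ratio that differed little among the knockout libraries, at 8.85, 9.52 and 9.24 by CPM, although both genes were lowest in knockout replicate 3. In the overexpression libraries the ratio was 9.41, 13.0 and 13.8, and replicate 1, richest in Ciita, lay inside the knockout range. H2-DMa stood at 0.374, 0.456 and 0.378 times the CPM of H2-DMb1 in the knockout libraries and at 0.393, 0.345 and 0.330 times in the overexpression libraries. The ratio of H2-Aa to Epcam, an epithelial surface protein, was 0.902, 1.40 and 0.315 in the knockout libraries and 0.774, 0.546 and 0.420 in the overexpression libraries. By this gene, unlike by Krt5, knockout replicate 3 had the lowest ratio. These ratios were picked after the values were seen and were not tested.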
